A study of Mus musculus with 6 samples.

Results

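The 10 genes described here are Sesn1, Sesn2, Sesn3, Ddit4, Castor1, Rragd, Flcn, Depdc5, Tfeb and Rptor. Most act between amino acid supply and the kinase complex mTORC1. Rptor encodes a part of that complex, Tfeb a factor that mTORC1 controls, and Ddit4 a stress inhibitor of mTORC1. The 10 genes were taken by symbol from the 41325 gene rows, and all 10 were found and passed the filter on low counts. The libraries, labelled salivary gland, came from female mice of the ICR stock, 10 weeks old when bought, and every mouse of both groups was injected intraperitoneally with 5-FU (5-fluorouracil, an antimetabolite) at 20 mg/kg per day, 2 times per week for 3 weeks. The elemental diet group (3 libraries) also received 1.6 kcal in 0.8 mL of Elental per day by mouth, a liquid formula that supplies nitrogen as free amino acids, and the saline group (3 libraries) received the same volume of saline. Both were dosed 2 times a day on 5 days a week for 3 weeks and shared the same commercial chow. Whether a library holds RNA of a single mouse is not stated in the labels; p-values therefore reflect only how these libraries vary, which may be technical.

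mTORC1 promotes protein synthesis and cell growth and restrains autophagy and lysosome formation when amino acids are plentiful. Amino acids act through the Rag GTPases, which bring mTORC1 to the lysosome. GATOR1 switches RagA and RagB off, GATOR2 opposes GATOR1, and the leucine sensor SESN2 and the arginine sensor CASTOR1 hold GATOR2 back until they bind their amino acid. The folliculin complex acts on RagC and RagD, and stress inhibitors such as DDIT4 act through the TSC complex and RHEB. The comparison asks how transcripts of this branch differ when a formula that brings both free amino acids and energy is added to the chow; neither group received the energy without the amino acids, or the amino acids in another form.

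The tissue is given as salivary gland, although the extraction protocol in the labels speaks of fibroblasts or keratinocytes, and marker genes went against the salivary label. Of 10 salivary acinar and duct markers 5 (Smgc, Pip, Bpifa1, Prb1 and Dcpp1) had 0 reads in all 6 libraries, and the list summed to 6.29 to 7.21 normalized CPM (read counts scaled to library size with TMM) with elemental diet and 10.1 to 12.6 with saline. Markers of blood cells were abundant and parted the groups. The 7 erythroid markers all rose and summed to 22072 to 22698 CPM with elemental diet and 1434 to 2245 with saline. The 6 markers of dividing cells all rose, to 3765 to 4480 CPM against 122 to 129. The 6 B cell markers all fell, to 675 to 718 CPM against 4998 to 5174, and the 6 T cell markers all fell, to 54.5 to 59.4 against 353 to 427. The 6 macrophage markers also all fell, to 472 to 575 CPM against 1095 to 1323, and the 6 neutrophil markers all rose, to 180 to 212 against 3.05 to 4.29. The 5 adipocyte markers, of which none was called, ranged from 2.85 to 45.2 CPM with elemental diet and 5.57 to 43.6 with saline. In bulk libraries fewer cells of a type and less RNA per cell cannot be told apart, and the part of these cell markers in the values below was not tested.

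Of the 10 genes 4 were higher and 6 lower with elemental diet by edgeR's quasi-likelihood test at a Benjamini-Hochberg adjusted p under 0.05. This stands against a background in which 78.1% of the 18303 genes tested were called, 38% higher and 40.2% lower, so being called does not set these genes apart. These shares moved with the scaling, to 30.6% higher and 49.5% lower with upper quartile and to 29.5% higher and 50.6% lower with no composition scaling. Ddit4, Sesn3, Tfeb and Sesn1 fell over 2-fold, as did 23.7% of all genes tested, and Rragd rose over 2-fold, as did 19.1%. Rptor, Sesn2 and Depdc5 were higher, and Castor1 and Flcn lower, by less. The median log2 fold change was -0.40 over the 10 genes and -0.08 over all genes tested. In all 10 genes the normalized CPM of the groups did not overlap, which held for 81% of all genes tested.

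**Figure D1:**
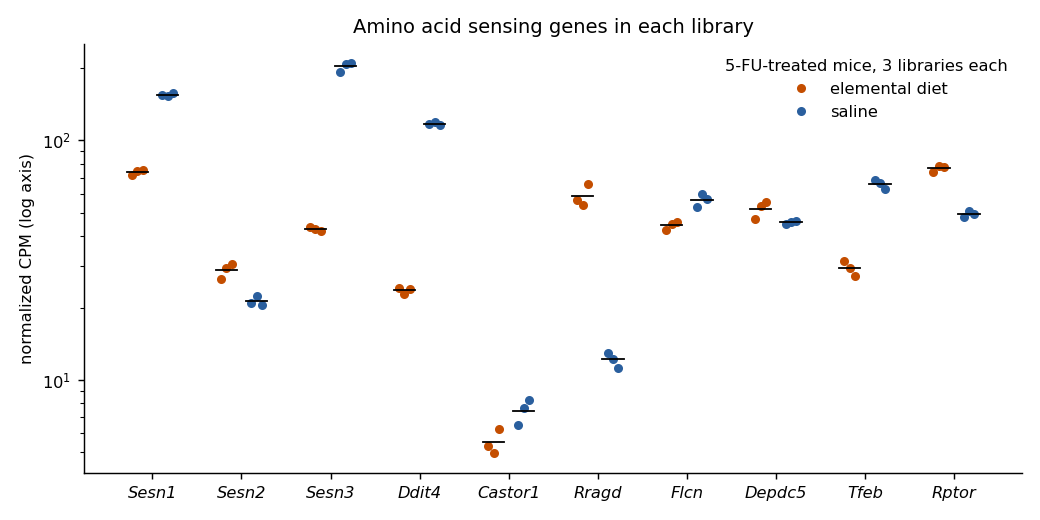
Normalized CPM (log axis) of the 10 genes in each library, with 3 elemental diet libraries to the left of 3 saline libraries for each gene; points are libraries and bars are group means. Ddit4, Sesn3, Tfeb and Sesn1 lie well below saline with elemental diet and Rragd well above, while Depdc5 and Castor1 nearly touch.

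Promoter windows of 4 of the 5 genes that changed over 2-fold are shown, Sesn1, Sesn3 and Ddit4, which fell, and Rragd, which rose, so that inhibitors that moved together can be set beside the gene that went the other way. The windows of Tfeb, the fifth, are not shown. The windows are RefSeq sequences on GRCm38.p6, from 250 bases before to 50 bases after a transcript start annotated by RefSeq, 5′ to 3′ on the gene's strand. These starts differ from the GENCODE gene starts given with each gene, and the Sesn1 and Sesn3 windows lie inside the GENCODE gene. They are chr10:41810324-41810623 (plus strand) for Sesn1, which has a further start, chr9:14276051-14276350 (plus) for Sesn3, chr10:59951721-59952020 (minus) for Ddit4 and chr4:32982748-32983047 (plus) for Rragd. Capitals mark matches to any of 6 motifs searched on both strands, namely the E-box CACGTG, the CARE element TGATGNAA read by ATF4, the forkhead motif GTAAACA, the hypoxia core ACGTG (which lies within the E-box), the GC box GGGCGG and the TATA box TATAAA.
Sesn1: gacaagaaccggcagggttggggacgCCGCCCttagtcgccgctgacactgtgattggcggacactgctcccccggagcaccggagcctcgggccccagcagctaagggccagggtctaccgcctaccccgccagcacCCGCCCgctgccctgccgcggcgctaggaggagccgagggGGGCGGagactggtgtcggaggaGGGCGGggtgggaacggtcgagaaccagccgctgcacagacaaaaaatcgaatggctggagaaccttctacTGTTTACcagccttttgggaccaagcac
Sesn3: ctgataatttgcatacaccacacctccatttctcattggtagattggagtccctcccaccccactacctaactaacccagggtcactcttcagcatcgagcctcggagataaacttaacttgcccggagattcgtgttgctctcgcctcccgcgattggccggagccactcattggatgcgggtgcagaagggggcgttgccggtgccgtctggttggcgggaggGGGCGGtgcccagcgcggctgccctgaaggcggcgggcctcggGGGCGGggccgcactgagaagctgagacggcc
Ddit4: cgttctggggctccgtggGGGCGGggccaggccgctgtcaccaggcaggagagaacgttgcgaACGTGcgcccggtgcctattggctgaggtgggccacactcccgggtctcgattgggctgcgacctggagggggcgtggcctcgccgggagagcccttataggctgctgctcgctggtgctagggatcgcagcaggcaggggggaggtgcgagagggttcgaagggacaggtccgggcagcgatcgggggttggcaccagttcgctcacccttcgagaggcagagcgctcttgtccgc
Rragd: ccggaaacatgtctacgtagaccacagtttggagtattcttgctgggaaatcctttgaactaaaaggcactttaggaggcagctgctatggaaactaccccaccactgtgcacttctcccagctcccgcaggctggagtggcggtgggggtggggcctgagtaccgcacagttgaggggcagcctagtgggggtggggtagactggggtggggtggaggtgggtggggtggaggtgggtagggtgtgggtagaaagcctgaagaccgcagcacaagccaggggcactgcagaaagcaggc
In this Sesn1 window 4 capital runs are GC boxes on either strand and the last, TGTTTAC, is the forkhead motif read on the other strand. Both Sesn3 matches are GC boxes, the Ddit4 window holds 1 GC box and 1 hypoxia core, and the Rragd window holds no match. Over the 13 windows that RefSeq gives for the 10 genes, 10 held a GC box, 3 the hypoxia core, 1 the forkhead motif, and 0 the E-box, the CARE element or the TATA box. Among 32544 windows of all genes the shares were 35.9% for the GC box, 19.7% for the hypoxia core, 3.66% for the forkhead motif, 7.17% for the E-box, 3.91% for CARE and 13.6% for the TATA box. A match is a description of letters and not of binding.

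The sestrins moved in different directions. Sesn3, a sestrin gene known as a target of forkhead FOXO factors (chromosome 9, 14275067 to 14333101, GRCm38), had 43.4, 42.9 and 41.9 CPM with elemental diet, against 193, 209 and 210 CPM with saline. The values within each group lay close together and the groups stood far apart. The log2 fold change was -2.25 (SE 0.05, edgeR adjusted p = 1.2e-13), a 4.77-fold fall. Sesn1, the founding sestrin and a target of p53 (chromosome 10, 41809935 to 41908424), had 71.9, 74.6 and 75.2 CPM with elemental diet, against 155, 153 and 157 CPM with saline. It fell by 1.07 on the log2 scale (SE 0.05, adjusted p = 6.6e-11), and no library of either group came near the other.

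Sesn2, the leucine sensor and a gene induced by ATF4 (chromosome 4, 132492032 to 132510501), went the other way by a small margin. It had 26.4, 29.4 and 30.5 CPM with elemental diet, against 20.9, 22.3 and 20.6 CPM with saline. This is a log2 fold change of 0.43 (SE 0.08, edgeR adjusted p = 0.00018). The rise depended on the scaling: it was 0.16 with upper quartile scaling (adjusted p = 0.0601) and 0.12 with no composition scaling (adjusted p = 0.137). The authors' TPM divides by exon length, matches exon reads rather than total gene reads, and carries no composition scaling. It overlapped, at 18.9, 20.2 and 21.4 with elemental diet and 19.4, 20.4 and 18.9 with saline. The predicted gene Gm12981 overlaps Sesn2 on the same strand, and 97.2% of the Sesn2 reads were unique.

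Because the share of each sestrin in their summed TPM is taken within a library, it does not depend on the scaling between libraries. Sesn2 made up 30.1% ± 1.52 of sestrin TPM in elemental diet libraries and 11.5% ± 0.346 with saline (SD, n = 3 each). Sesn3 made up 10.5% ± 0.485 in elemental diet libraries and 26.0% ± 0.837 with saline, and Sesn1 59.3% ± 1.13 and 62.5% ± 0.936. None of the 3 shares overlapped between the groups, with p = 0.1 for each by an exact two-sided permutation test, where 3 against 3 libraries cannot go lower. The summed sestrin TPM was 67.0 ± 1.06 with elemental diet and 170 ± 2.07 with saline. Sesn1 was the most abundant sestrin in both groups, Sesn2 was second with elemental diet, and Sesn3 was second with saline.

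Ddit4 encodes REDD1, which inhibits mTORC1 through the TSC complex and is induced by glucocorticoids, hypoxia, ATF4 and p53 (chromosome 10, 59949669 to 59951834). It had 24.1, 22.8 and 24.0 CPM with elemental diet, against 117, 120 and 116 CPM with saline. The log2 fold change of -2.31 (SE 0.05, edgeR adjusted p = 8.9e-14) was the largest in size of the 10 genes, a 4.97-fold fall. Its relative Ddit4l stood at 0.771 ± 0.422 CPM in elemental diet libraries and 1.99 ± 0.296 with saline (SD, n = 3 each) and was also lower (log2 fold change -1.35, SE 0.36, adjusted p = 0.0036).

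Castor1, the cytosolic arginine sensor (chromosome 11, 4218225 to 4222409), was the least abundant of the 10 genes by CPM. It had 5.29, 4.93 and 6.22 CPM with elemental diet, against 6.47, 7.63 and 8.25 CPM with saline, so the highest elemental diet library lay just under the lowest saline library. The log2 fold change was -0.44 (SE 0.15, edgeR adjusted p = 0.018). With DESeq2 the adjusted p was 0.0647, and without elemental diet replicate 2, saline replicate 2 or saline replicate 3 it was 0.0805, 0.0541 and 0.0851. Its paralog Castor2, whose protein pairs with CASTOR1, fell further, to 6.74 ± 0.112 CPM with elemental diet against 19.2 ± 1.48 with saline (SD, n = 3 each). Castor1 made up 79.6% ± 2.12 of the summed TPM of both genes in elemental diet libraries and 64.0% ± 3.59 with saline.

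Other sensors split in the same comparison. Of 5 further sensor and stress inhibitor genes 2 rose and 3 fell, against 38% higher and 40.2% lower of all genes. Lars, the leucyl-tRNA synthetase, rose to 162 ± 12.4 CPM with elemental diet against 70.7 ± 0.538 with saline (SD, n = 3 each). Slc38a9, the lysosomal arginine sensor, was 1.85-fold higher, and Bmt2, which encodes the methionine-pathway sensor SAMTOR, was 2.09-fold lower. Ddit4l and Castor2 were the others that fell.

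Rragd encodes RagD, which with its relative RagC forms the side of the Rag heterodimer that folliculin acts on (chromosome 4, 32983037 to 33022180). It had 56.5, 53.9 and 65.7 CPM with elemental diet, against 13.0, 12.3 and 11.3 CPM with saline. The lowest elemental diet library stood far above the highest saline library. Its log2 fold change was 2.27 (SE 0.09, edgeR adjusted p = 1.7e-11), a 4.81-fold rise and the only one of the 10 genes over 2-fold.

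No other Rag or Ragulator gene on the list was over 2-fold higher or lower. Rragc stood at 77.3 ± 2.24 CPM in elemental diet libraries and 67.7 ± 5.02 with saline (SD, n = 3 each), with a log2 fold change of 0.19 that became -0.08 with upper quartile and -0.12 with no composition scaling. Rragd made up 29.8% ± 2.97 of the summed TPM of Rragc and Rragd in elemental diet libraries and 10.6% ± 0.949 with saline (exact two-sided permutation p = 0.1). Of 8 further Rag and Ragulator genes 6 were higher, 1 lower and 1 not called, against 38% higher and 40.2% lower of all genes. Their median log2 fold change was 0.24. With upper quartile and with no composition scaling 1 was higher, against 30.6% and 29.5% of all genes. Another 2 were lower, against 49.5% and 50.6%, and the list medians were -0.03 and -0.07. Lamtor4, a Ragulator subunit, was the 1 that fell (log2 fold change -0.59), and Lamtor1, which anchors Ragulator to the lysosome, rose by 0.46.

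Flcn, folliculin, the GTPase activator for RagC and RagD (chromosome 11, 59791408 to 59810016), fell slightly. It had 42.2, 44.7 and 45.5 CPM with elemental diet, against 52.8, 59.9 and 56.7 CPM with saline (change of -0.36 on the log2 scale, SE 0.06, edgeR adjusted p = 0.00013). Its partner genes differed from it and from each other. Fnip2, a folliculin-interacting protein, rose to 87.3 ± 8.87 CPM with elemental diet against 12.1 ± 0.939 with saline (SD, n = 3 each; log2 fold change 2.85, SE 0.09, adjusted p = 2.9e-12). Only 36.8% of the Fnip2 reads were unique; counted on those alone, the log2 fold change was 3.09. Fnip1 was not called, with 46.8 ± 0.841 CPM in the elemental diet group and 47.5 ± 0.871 CPM in the saline group (log2 fold change -0.02), although it was lower with upper quartile (-0.29) and with no composition scaling (-0.33). Fnip2 made up 63.7% ± 2.08 of the summed TPM of both in elemental diet libraries and 19.9% ± 0.844 with saline.

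**Figure D2:**
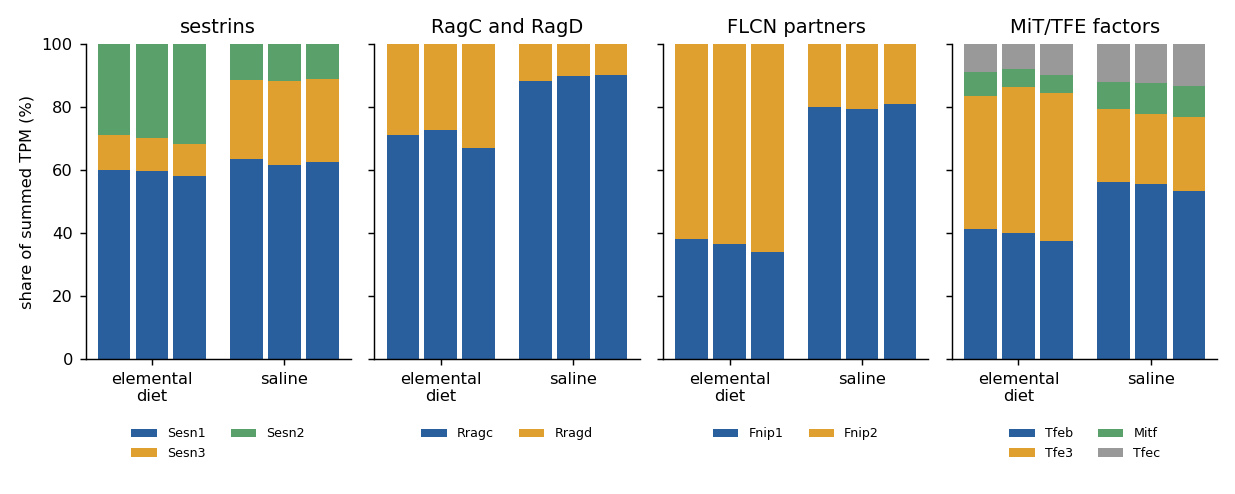
Share of the summed TPM (%) held by each gene of 4 small families in each library, with 3 elemental diet bars left of 3 saline bars in each panel. With elemental diet Sesn2, Rragd, Fnip2 and Tfe3 hold larger shares than with saline, and Sesn3 and Tfeb smaller ones.

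Depdc5, the GTPase-activating subunit of GATOR1 (chromosome 5, 32863701 to 32994236), had 46.8, 53.3 and 55.2 CPM with elemental diet, against 44.6, 45.7 and 46.0 CPM with saline. The lowest elemental diet library lay just above the highest saline library. The log2 fold change was 0.19 (SE 0.07, edgeR adjusted p = 0.018), and its direction was not settled, since it was -0.08 with upper quartile and -0.12 with no composition scaling. Without elemental diet replicate 2, elemental diet replicate 3 or saline replicate 1 the adjusted p was 0.0554, 0.0509 and 0.0643.

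The other GATOR1 subunits were small in change as well. Nprl2 stood at 12.8 ± 0.984 CPM in elemental diet libraries and 16.6 ± 0.508 with saline (SD, n = 3 each; log2 fold change -0.38), and Nprl3 at 69.7 ± 3.39 and 57.9 ± 0.482 (0.27, but -0.01 with upper quartile and -0.04 with no composition scaling). Itfg2 of KICSTOR, the complex that tethers GATOR1 to the lysosome, was 1.47-fold higher, with 48.6% of its reads unique. All 5 GATOR2 genes rose, against 38% of all genes, and their median log2 fold change was 0.88. Seh1l and Sec13, which GATOR2 shares with the nuclear pore, rose 2.03-fold and 1.84-fold. The smallest of the 5 rises, Wdr24, was not called with upper quartile or with no composition scaling.

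Tfeb encodes a transcription factor of lysosome and autophagy genes that mTORC1 keeps in the cytoplasm (chromosome 17, 47737030 to 47792419). It had 31.5, 29.4 and 27.1 CPM with elemental diet, against 68.4, 66.7 and 62.5 CPM with saline. The groups did not come near each other, and the log2 fold change was -1.17 (SE 0.07, edgeR adjusted p = 1.1e-09), a 2.25-fold fall. Its relatives Mitf and Tfec also fell, with log2 fold changes of -1.21 and -1.22. Tfe3, the other widely expressed factor of the family, stood at 48.2 ± 2.69 CPM in elemental diet libraries and 37.4 ± 0.564 with saline (SD, n = 3 each), a log2 fold change of 0.37 that was no longer called with upper quartile (0.10) or with no composition scaling (0.06). Tfeb made up 39.6% ± 2.0 of the family's summed TPM in elemental diet libraries and 55.1% ± 1.51 with saline, and Tfe3 45.1% ± 2.67 and 22.9% ± 0.694.

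Of 6 lysosomal genes listed as targets of TFEB 1 rose, 3 fell and 2 were not called, against 38% higher and 40.2% lower of all genes. With upper quartile and with no composition scaling 0 were higher and 5 lower, against 49.5% and 50.6% of all genes lower. The 1 that rose, Ctsd, the protease cathepsin D, had a log2 fold change of 0.25 (21.6% of its reads unique), which was -0.02 and -0.05 with those scalings. Gpnmb, a glycoprotein of macrophages and pigment cells, fell to 1.83 ± 0.462 CPM with elemental diet against 6.57 ± 0.555 with saline (SD, n = 3 each). Mcoln1, the lysosomal calcium channel, was 1.42-fold lower.

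Rptor, the mTORC1 subunit that binds substrates and the Rag GTPases (chromosome 11, 119602905 to 119899576), rose. It had 74.1, 78.2 and 77.1 CPM with elemental diet, against 47.7, 51.0 and 49.1 CPM with saline. The values were tight within groups, and the log2 fold change was 0.63 (SE 0.05, edgeR adjusted p = 6.7e-08), a 1.55-fold rise. The antisense gene Rptoros overlaps Rptor, and since strand use in the counting is not known, reads of the pair cannot be told apart.

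Mtor, the kinase itself, was not called, at 59.9 ± 4.50 CPM in elemental diet libraries and 57.2 ± 2.30 with saline (SD, n = 3 each; log2 fold change 0.07), and was lower with upper quartile (-0.21) and with no composition scaling (-0.24). Mlst8, a subunit shared by both mTOR complexes, rose 2.14-fold, with 58.7% of its reads unique. Of 4 mTORC2 subunit genes 1 rose and 3 fell, against 38% higher and 40.2% lower of all genes. Rictor, the mTORC2 scaffold, was lower by a log2 fold change of -0.28 and Mapkap1 by -0.71. Prr5 fell 5.21-fold, to 10.2 ± 0.449 CPM with elemental diet against 53.4 ± 2.08 with saline, while its paralog Prr5l rose 2.71-fold.

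Below the Rag branch, Rheb, the GTPase that activates mTORC1, rose 1.51-fold and Tsc2, the inhibitor of RHEB, 1.39-fold. The other 3 genes of that list, Tsc1, Tbc1d7 and Rhebl1, were not called, while of all genes 38% were higher and 40.2% lower. With upper quartile scaling Tsc1 (log2 fold change -0.33) and Rhebl1 (-0.50) were called lower, as they were with no composition scaling (-0.37 and -0.53). Of all genes 49.5% and 50.6% were lower with these scalings. Of 8 mTORC1 substrate genes 7 rose and 1 fell, with a median log2 fold change of 0.64, against 38% higher and 40.2% lower of all genes. With upper quartile and with no composition scaling 6 were higher, against 30.6% and 29.5% of all genes, and 1 was lower. The list medians were then 0.37 and 0.33. Eif4ebp1, the translation repressor that mTORC1 inactivates, rose to 74.6 ± 5.72 CPM with elemental diet against 20.8 ± 1.09 with saline (SD, n = 3 each), and Larp1, which binds the messages of ribosomal proteins, rose 2.31-fold. Maf1, a repressor of RNA polymerase III, was the 1 that fell (log2 fold change -0.27). These are transcript levels and carry no measurement of mTORC1 activity.

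**Figure D3:**
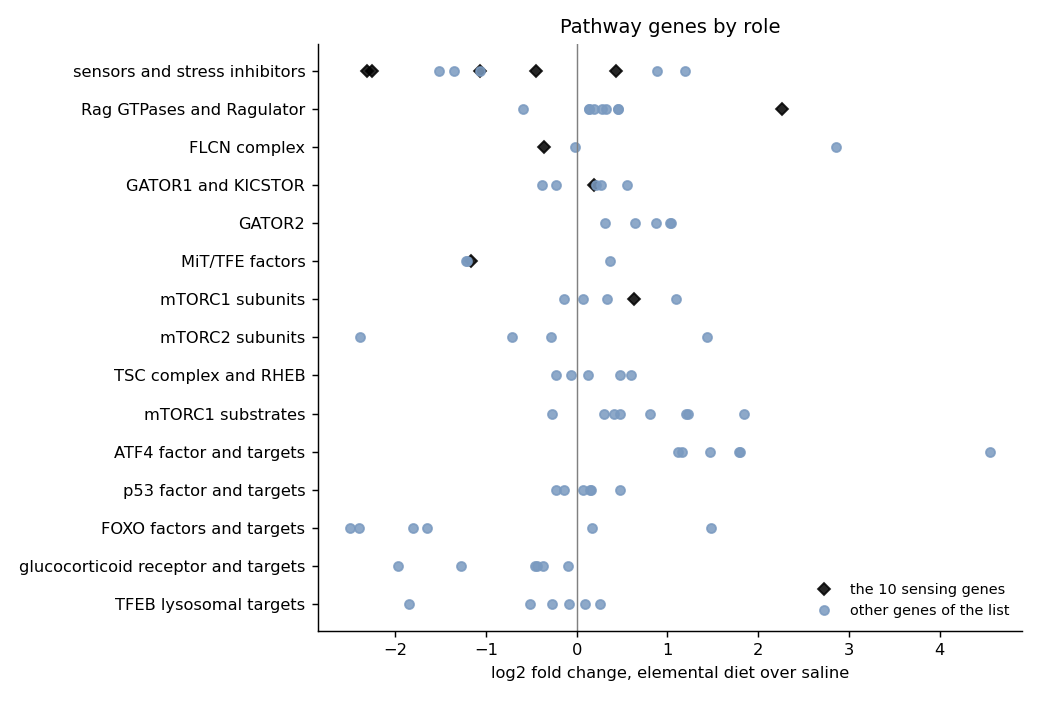
Log2 fold change, elemental diet over saline, of every measured gene of 15 lists by role; diamonds are the 10 sensing genes and circles the other genes of each list. All circles of the ATF4 and GATOR2 lists lie right of 0, and those of the glucocorticoid list lie left of it.

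By TPM, which allows levels of different genes to be compared, the order of the 10 genes changed between groups. With elemental diet Sesn1 was highest at 39.7 ± 0.732 TPM, followed by Ddit4 at 35.0 ± 1.41, Rragd at 24.2 ± 2.82 and Flcn at 23.3 ± 1.11, and Sesn3 was lowest at 7.05 ± 0.219 (SD, n = 3 each). With saline Ddit4 was highest at 232 ± 5.82 TPM, followed by Sesn1 at 106 ± 0.302 and Sesn3 at 44.4 ± 1.93, and Rragd was lowest at 7.29 ± 0.537. Neighbours whose libraries overlapped were Rragd and Flcn, Tfeb and Rptor, and Depdc5 and Castor1 with elemental diet, and Flcn and Tfeb, and Rptor and Rragd with saline. Rragd ranked 3 of 10 with elemental diet and 10 of 10 with saline, and Sesn3 ranked 10 with elemental diet and 3 with saline.

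Intron reads can come from RNA that is not yet spliced. Introns held 8.64% ± 0.225 of all reads in elemental diet libraries and 14.0% ± 0.341 in saline libraries (SD, n = 3 each). Of the 10 genes 8 had a lower intron share with elemental diet as well, the largest gap being that of Rptor, at 21.9% ± 2.14 with elemental diet and 35.6% ± 5.71 with saline. Rragd went against this, with 20.4%, 19.1% and 17.5% of its reads in introns with elemental diet, against 14.0%, 9.05% and 11.5% in the saline libraries. On the same strand, 9930024M15Rik overlaps Sesn1, Gm24003 and Gm43693 overlap Depdc5, and Gm23663 overlaps Rptor. The processed pseudogene Gm11943 overlaps Rragd on the other strand. Ddit4 also had a higher share with elemental diet, at 1.29% ± 0.339 against 0.890% ± 0.0381, from 25 intron reads with elemental diet and 105 with saline. By an exact two-sided permutation test p was 0.1, the smallest possible, for 8 of the 10 genes, and 0.2 for Sesn2 and Tfeb, whose groups overlapped. How many of all genes had a lower or a non-overlapping intron share was not counted. These counts therefore do not set the 10 genes apart.

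Fitted on their own, exon reads and intron reads gave the same direction for all 10 genes. Each fit had its own library sizes and TMM scaling. The lower intron share of all reads with elemental diet is thereby scaled out, so the 2 fold changes of a gene have different baselines. In unscaled counts Rptor had 1379 intron reads with elemental diet and 1766 with saline, Depdc5 943 and 1320, and Sesn2 170 and 189. All 3 were higher in the intron fit. For Rragd the log2 fold change was 2.03 in exon reads (SE 0.09) and 3.45 in intron reads (SE 0.16), from 910 intron reads with elemental diet and 142 with saline. For Ddit4 it was -2.43 in exon reads (SE 0.05) and -1.29 in intron reads (SE 0.40). For Sesn3 it was -2.35 (SE 0.05) and -2.07 (SE 0.16), and for Tfeb -1.18 (SE 0.08) and -1.29 (SE 0.15). Because of the separate scaling, the gap between the 2 values of a gene does not measure a change in its intron share. For Sesn3 that share was lower with elemental diet, at 4.13% against 5.06% with saline. The differences between the read classes were not tested beyond the intron shares.

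**Figure D4:**
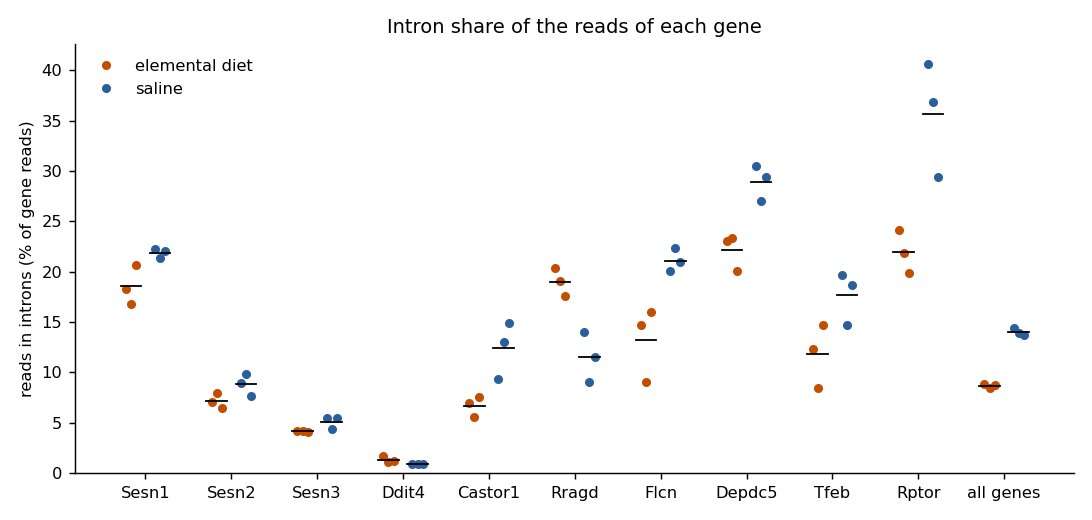
Reads in introns as a percentage of all reads of each gene, and of all genes together at the right; points are libraries, bars group means, with elemental diet left of saline. Rragd, and at a low level Ddit4, are higher with elemental diet, and the other 8 genes and all genes together are lower.

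The transcription factors known to control these genes were listed with some of their other targets. All 6 genes of the ATF4 list rose, each over 2-fold, as did 19.1% of all genes. Trib3 and Chac1 were scarce, at 0.939 ± 0.195 and 0.703 ± 0.267 CPM with saline (SD, n = 3 each), so their fold changes are less certain. Of the sensing genes that ATF4 is known to induce, Sesn2 rose by less, with a call that depended on the scaling, and Ddit4 fell. Asns, asparagine synthetase, rose to 226 ± 13.8 CPM with elemental diet against 9.57 ± 1.84 with saline (SD, n = 3 each). Atf4 itself rose to 271 ± 7.10 CPM against 121 ± 3.34, and Psat1, an enzyme of serine synthesis, rose 3.49-fold.

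Of 6 genes of the glucocorticoid receptor list 5 fell and 1, Zbtb16, was not called, against 40.2% of all genes lower. Tsc22d3 (GILZ), a classical glucocorticoid-induced gene, fell to 37.3 ± 2.17 CPM with elemental diet against 146 ± 1.09 with saline (SD, n = 3 each), and Sgk1 fell 2.42-fold. Both are also expressed in lymphoid cells, whose markers fell in the same libraries, and whether these falls are linked was not tested. Of 6 genes of the FOXO list 2 rose and 4 fell, against 38% higher and 40.2% lower of all genes. Of those that rose, Foxo4, had a log2 fold change of 0.17, which was -0.11 and not called with upper quartile, and -0.14 and called lower with no composition scaling. Foxo1 fell to 28.3 ± 1.92 CPM against 149 ± 3.35, while its relative Foxo3 rose to 234 ± 20.1 CPM against 84.2 ± 1.21. Klf2, Bcl6 and Pik3ip1 were the others that fell.

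The p53 list was close to level, with a median log2 fold change of 0.11. In it 2 genes were higher, 2 lower and 2 not called, against 38% higher and 40.2% lower of all genes. With upper quartile and with no composition scaling 1 was higher, against 30.6% and 29.5% of all genes. Another 4 were lower, against 49.5% and 50.6%, and the list medians were -0.16 and -0.20. Trp53 stood at 205 ± 3.19 CPM in elemental diet libraries and 147 ± 3.23 with saline, and Bax, a death effector, at 87.3 ± 7.65 and 102 ± 2.52 (SD, n = 3 each). Over all 79 other pathway genes 41 were higher and 26 lower, with a median of 0.16, against 38% higher and 40.2% lower of all genes. With no composition scaling 27 were higher and 37 lower, with a median of -0.15, against 29.5% higher and 50.6% lower of all genes.

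The genes whose values over the 6 libraries were most like those of Ddit4 were Pou2af1, Gimap1 and Sbk1. Likeness was the root mean square difference of centred log2 CPM, which was 0.02 for Pou2af1, 0.03 for Gimap1 and 0.04 for Sbk1, among 14725 named genes compared. All 3 were lower with elemental diet, with log2 fold changes of -2.29, -2.28 and -2.33. With libraries in 2 groups this measure mostly reads the fold change. The B cell and T cell markers also fell in these libraries, and whether the falls of Ddit4 and these 3 genes are linked to theirs was not tested.

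**Figure D5:**
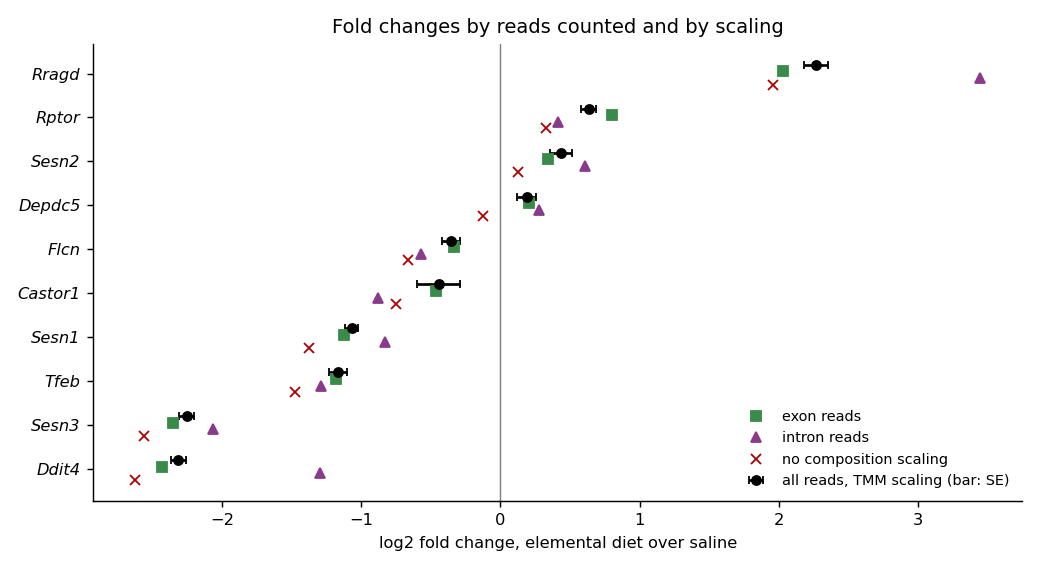
Log2 fold change, elemental diet over saline, of the 10 genes from all reads (circles, bars are SE), exon reads, intron reads, and all reads with no composition scaling. Depdc5 crosses 0 with no composition scaling, at -0.12, and the intron value of Rragd, 3.45, lies farthest from its other values. Exon reads and intron reads were each scaled on their own.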

How the data were processed

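RNA-seq was measured in 6 libraries, grouped by title. The deposited files hold whole-number read counts for 41325 gene rows, made by the authors. No source used here gives the aligner, the counter, strand use or filters. Builds GRCh37 and GRCm38 are both named, per the submitters' processing notes; the identifiers and coordinates of all 10 genes equal those of GENCODE M21 on GRCm38. TPM values, and the RPKM column that was not used further, were computed by the authors, per the file headers.

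Total gene reads, introns included, were fitted across all genes with edgeR 4.0.16 in R 4.3.3 (glmQLFit, robust, and glmQLFTest, two-sided), with TMM scaling and Benjamini-Hochberg adjustment at 0.05; filterByExpr kept 18303 genes. Normalized CPM uses the TMM-scaled library sizes; standard errors (SE) were derived from the log2 fold change and its F statistic. The fit was tested on simulated data in which few genes changed. With 78.1% of genes called here, that cannot check the choice of scaling. Totals were 29053287 to 33073125 reads; a count of 0 allows 3 reads, which covers counting error only. Median chi-square between replicates was at least 2.83 times sampling noise, so no library was treated as a repeat sequencing of another. This check cannot tell libraries of different mice from libraries of 1 mouse that were prepared apart. Alternatives included other scalings, filters and read classes, DESeq2 1.42.0 and leaving out each library.

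The 10 genes, the lists and the naming rule were chosen with earlier results of these data known. The rule took the 10 genes, up to 2 genes per list with the smallest p, 11 listed partners, and the 3 genes nearest to the member with the largest fold change; genes named outside it, such as Ctsd, Foxo4, Tsc1 and Rhebl1, were chosen after their values were seen. Of 80 other pathway symbols 79 were matched to a row; Kics2 was not analysed here. For Ddit3, listed on 2 overlapping rows, the row Ddit3_1 was used.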

Additional observations from a re-analysis of the deposited data

How the results depend on the processing

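Over 18 alternatives, the calls and directions of Ddit4, Sesn3, Tfeb, Sesn1 and Rragd were the same in every one, with log2 fold changes of -2.62 to -1.29, -2.56 to -2.07, -1.47 to -1.10, -1.38 to -0.83 and 1.96 to 3.45. Scaling mattered for small changes: over all genes the median log2 fold change shifted by -0.27 with upper quartile and by -0.31 with no composition scaling. The Depdc5 log2 fold change was then -0.085 and -0.12, the call of Sesn2 was lost, and 2 of the 10 genes were higher in each, against 4. Of all genes 30.6% and 29.5% were higher with these scalings. Tested against a fold change of 1.5, 1 of the 10 was higher and 4 lower, and over all genes 4432 were higher and 4862 lower. With intron reads alone 4772 genes were lower, among 14493 tested. Without composition scaling 5407 genes were higher and 9265 lower, against 6951 and 7352. Leaving out each library in turn gave 3 to 4 of the 10 genes higher and 5 to 6 lower. Over all genes these fits gave 6708 to 7095 higher and 7023 to 7580 lower, among 18663 to 19004 tested. With unique reads the difference in the intron share of Sesn2 reversed, to 0.255 percentage points (elemental diet minus saline), where all reads gave -1.63. With the replicate number as a block 6925 genes were higher and 7316 lower, with 4 and 6 of the 10 genes. Deviations of same-numbered libraries correlated at 0.117, -0.00799 and 0.0578, and not every library correlated best with its own number, so the numbers were not taken to pair the libraries. Depth limits Castor1 most, at 144 to 268 reads per library.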
